A study of Mus musculus with 96 samples.

Results

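The 16 striatal libraries of wild-type mice aged 10 months were compared as 2 cohorts of 8, chosen by their housing label out of 96 libraries in all. Mice of the Q50 cohort were kept together with heterozygous Q50 knock-in mice, and mice of the Q20 cohort were kept together with heterozygous Q20 knock-in mice, where the number is the label of the CAG repeat length in the knocked-in Htt allele. Both cohorts were C57BL/6, wild type at Htt, and held 4 females and 4 males, named F1 to F4 and M1 to M4 by the replicate number within a sex. The contrast therefore shows how far wild-type mice of 1 study differed with no genotype difference between them. The other groups used here were the knock-in mice of the same cohorts (8 Q50 and 8 Q20 at 10 months), the wild types of both cohorts at 6 months (8 each) and, for levels over all 12 groups, the Q20 and Q50 knock-in mice at 6 months and the Q92 and Q140 knock-in mice at 6 and 10 months (8 each). The study called its wild types littermate controls, so the housing label can go with litter, breeding and handling. A number in the library codes of the labels fell in separate ranges for the 2 cohorts, in wild types and knock-in mice alike, and the labels do not say what it numbers. Housing, litter and whatever this number follows cannot be told apart.

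The glucocorticoid receptor is a hormone-activated transcription factor that mediates part of the response to corticosterone, the main stress and circadian steroid of mice. On binding the hormone it enters the nucleus and induces a recurring group of genes in many tissues, the brain included, among them Zbtb16, Tsc22d3, Fkbp5, Sgk1 and Plin4. Hormone levels were not part of the data analysed here. The other genes that differed between the cohorts are introduced where their values are given.

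Wild-type mice of the 2 cohorts differed in few genes and by modest amounts, but the largest differences were sizeable. Of 17285 genes tested, 60 passed an adjusted p of 0.05 (0.347%; edgeR quasi-likelihood test, Benjamini-Hochberg adjustment): 38 were lower in the Q50 cohort (0.220%) and 22 were higher (0.127%). Fold sizes ran from 1.107 to 3.53 with a median of 1.336, and 3 genes passed 2-fold: Zbtb16, Plin4 and Hif3a, all lower in the Q50 cohort. All 60 were protein-coding, and all 60 had the same direction in females and in males. They were called on females and males together, which favours 1 direction in both, so this is not a separate test. In 19 of the 60, 13 of them lower, the 8 libraries of one cohort did not overlap with the 8 of the other (38 of all genes, 0.220%; 24 lower, 0.139%, and 14 higher, 0.0810%). Htt, the gene that carries the knock-in in the housing companions, had 189.1, 199.8 and 225.1 CPM as the lowest, median and highest value in the Q50 cohort and 191.1, 204.1 and 213.8 in the Q20 cohort, a log2 difference of -0.0030 ± 0.048 (edgeR adjusted p = 0.993). CPM are counts that were scaled for depth by TMM, over all 96 libraries at once; they are not corrected for gene length, so levels are compared between libraries and not between genes. All log2 differences are Q50 cohort minus Q20 cohort, with the standard error of the fit.

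The count of 60 fell below 40 without Q20-cohort F2 (27), Q20-cohort M4 (32), Q50-cohort M1 (33), Q50-cohort F3 (35), Q50-cohort F1 (37), Q20-cohort F4 (37) or Q50-cohort M2 (39). It was 13 in females alone and 0 in males alone (1646 at an unadjusted p under 0.05, edgeR), with 8 libraries each. With the L number of the library codes as a factor 30 genes passed, and the wild types of each cohort were spread over 6 of these numbers. With limma on the authors' FPKM values the split was 26 higher and 29 lower.

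**Figure D1:**
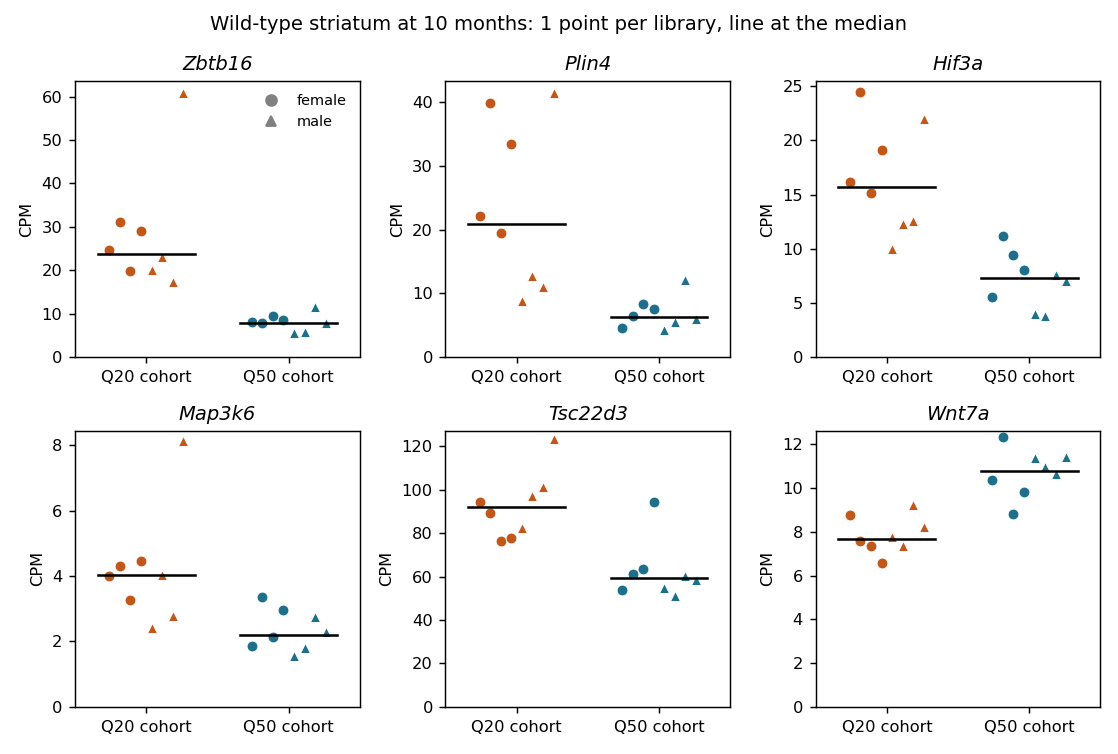
CPM of 6 genes in each of the 16 wild-type libraries of 10 months, by cohort (circles, females; triangles, males; line, median of 8). Zbtb16 did not overlap between the cohorts, and in Plin4, Hif3a, Tsc22d3 and Wnt7a 7 of 8 Q50-cohort libraries lay beyond every Q20-cohort library; Map3k6 overlapped more.

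Glucocorticoid-responsive genes included the largest differences. All 14 genes of the list were measured, 3 fell in the Q50 cohort (Zbtb16, Plin4 and Map3k6; 0.220% of all genes fell), 0 rose and 11 did not pass. The log2 difference was below 0 in 14 of 14 members (49.0% of all genes tested), with a median of -0.26 against 0.0021 over all genes. The list was chosen with earlier results of these data known, so its shares, here and in the other mice, are a description and not a test. The mean level of the list was 4.35, 4.57 and 4.83 log2 CPM as the lowest, median and highest of the Q50 cohort, and 4.70, 5.12 and 5.52 of the Q20 cohort, so the cohorts overlapped in this sum. In bulk tissue, fewer cells of a type and less RNA per cell cannot be told apart.

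Zbtb16 (ENSMUSG00000066687, chromosome 9), a zinc finger transcriptional repressor, gave the largest difference. The females F1 to F4 of the Q50 cohort had 8.01, 7.79, 9.43 and 8.61 CPM, and the males M1 to M4 had 5.68, 5.81, 11.5 and 7.83. In the Q20 cohort the females had 24.6, 31.2, 19.8 and 29.1 CPM, and the males had 20.1, 23.1, 17.4 and 60.8. Each Q50-cohort mouse lay below each Q20-cohort mouse, and Q20-cohort M4 lay far above its own cohort. The gene fell 3.53-fold (log2 -1.82 ± 0.24, edgeR adjusted p = 4.16e-05), and it passed in each of the 16 fits that left out 1 library.

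Plin4, a coat protein of lipid droplets, was more variable. Its CPM in the Q50 cohort were 4.64, 6.49, 8.31 and 7.48 in females and 4.28, 5.48, 12.1 and 5.97 in males. In the Q20 cohort they were 22.2, 39.8, 19.5 and 33.5 in females and 8.79, 12.7, 11.0 and 41.5 in males. Within the Q20 cohort 3 of 4 males lay below every female, and the cohorts overlapped through Q50-cohort M3 alone. Plin4 fell 3.38-fold (log2 -1.76 ± 0.32, edgeR adjusted p = 0.00369), and it did not pass with the L number as a factor. Map3k6, a kinase upstream of MAP kinases, had 1.55, 2.21 and 3.34 CPM as its lowest, median and highest value in the Q50 cohort and 2.43, 4.02 and 8.11 in the Q20 cohort, again with M4 at the top. Its fall of 1.81-fold (log2 -0.86 ± 0.21, edgeR adjusted p = 0.0451) was lost in 9 of 16 fits that left out 1 library (adjusted p = 0.0617 to 0.208), which were those without Q20-cohort F2, F4, M2 or M4 or Q50-cohort F1, F3, M1, M2 or M4.

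The remaining 11 members of the list did not pass the threshold over all genes. Tsc22d3, the glucocorticoid-induced leucine zipper GILZ, came nearest. It had 53.7, 61.1, 63.8 and 94.5 CPM in the Q50-cohort females and 54.8, 51.0, 60.3 and 58.4 in the males, against 94.5, 89.3, 76.6 and 77.6 in the Q20-cohort females and 82.5, 97.1, 101.4 and 123.6 in the males. All Q50-cohort mice except F4 lay below every Q20-cohort mouse, at a log2 difference of -0.59 ± 0.15 (edgeR adjusted p = 0.0588). Sult1a1, a sulfotransferase, stood at -0.51 ± 0.14 (adjusted p = 0.092) and Sgk1, a serum- and glucocorticoid-regulated kinase, at -0.60 ± 0.25 (adjusted p = 0.397). Fkbp5, a co-chaperone of the receptor itself, stood at -0.28 ± 0.10 (adjusted p = 0.305), with medians of 40.3 CPM in the Q50 cohort and 52.2 in the Q20 cohort. Klf9, a Krüppel-like transcription factor, stood at -0.24 ± 0.090 (adjusted p = 0.35). The others ran from -0.24 for the cell-cycle inhibitor Cdkn1a and the NF-kappa-B inhibitor Nfkbia to -0.047 for the metallothionein Mt1, with Ddit4, Mt2 and Errfi1 between them; each adjusted p came from edgeR.

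**Figure D2:**
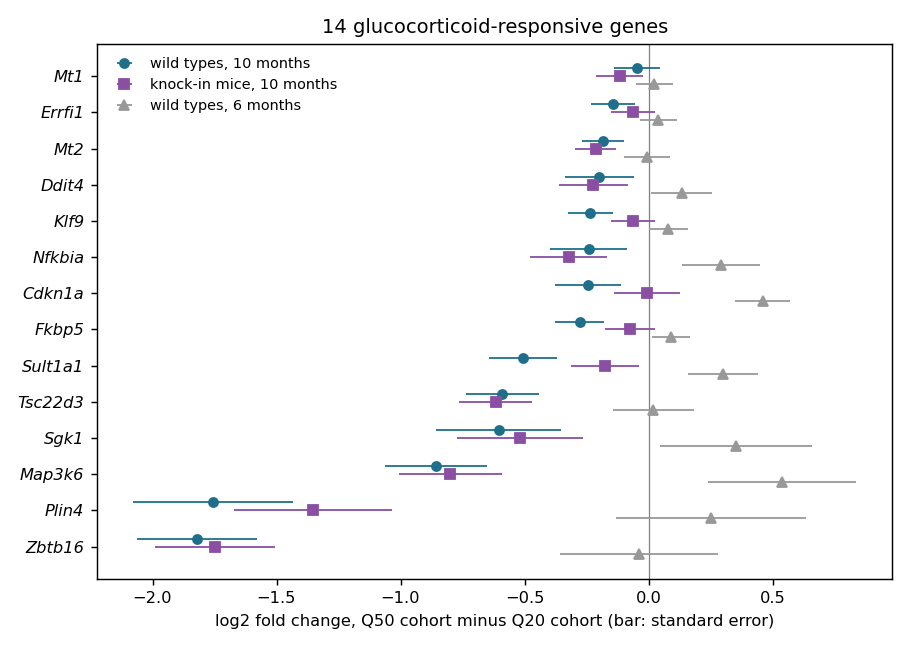
Log2 differences, Q50 cohort minus Q20 cohort, of the 14 glucocorticoid-responsive genes in 3 sets of mice (circles, wild types at 10 months; squares, knock-in mice at 10 months; triangles, wild types at 6 months; bars, standard error). All 14 circles and all 14 squares lie below 0, and 2 of 14 triangles do.

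The receptor binds DNA as a dimer at a palindrome. The start regions of the genes lower in the Q50 cohort were searched for a relaxed form of that palindrome, GNACANNNTGTNC on both strands, in the RefSeq promoters of build GRCm38.p6 (250 bases before to 50 after the start). Of 30 matched genes among the 38, 2 held it, Tinagl1 and Map3k6, against 0 of 17 matched genes among the 22 higher ones and 0.537% of 27025 genes; of 13 matched members of the list, 3 held it (Sgk1, Map3k6 and Mt1). The single arm TGTTCT, which can overlap the palindrome, was in 5 of the 30, 1 of the 17 and 21.3% of all genes. Of the 13 matched list members 3 held this arm (Sgk1, Tsc22d3 and Sult1a1). Zbtb16 had no entry. The promoters of both genes that fell and hold the palindrome are printed with the match in capitals, to show where in each start region it lies; Tinagl1 is at chr4:130174753-130175052 on the minus strand and Map3k6 at chr4:133240568-133240867 on the plus strand, both 5′ to 3′.
Tinagl1: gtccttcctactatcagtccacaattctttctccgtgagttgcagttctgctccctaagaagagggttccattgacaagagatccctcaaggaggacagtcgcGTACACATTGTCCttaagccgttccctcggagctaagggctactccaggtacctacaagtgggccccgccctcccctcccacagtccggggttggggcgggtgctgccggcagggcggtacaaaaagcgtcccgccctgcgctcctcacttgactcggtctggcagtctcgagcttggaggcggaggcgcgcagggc
Map3k6: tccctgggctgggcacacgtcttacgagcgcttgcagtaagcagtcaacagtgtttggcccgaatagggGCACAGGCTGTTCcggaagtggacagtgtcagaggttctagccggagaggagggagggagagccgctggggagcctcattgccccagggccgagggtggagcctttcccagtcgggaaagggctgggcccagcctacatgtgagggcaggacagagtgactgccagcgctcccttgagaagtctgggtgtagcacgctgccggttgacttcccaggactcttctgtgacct
The matches begin 147 and 181 bases before the start, and a match of letters is a description, not a binding site.

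Other genes that fell in the Q50 cohort were found by size of change among those past the threshold. Hif3a, a subunit of hypoxia-inducible factors, had 5.58, 11.2, 9.43 and 8.002 CPM in the Q50-cohort females and 3.95, 3.78, 7.56 and 7.04 in the males, against 16.1, 24.4, 15.2 and 19.1 in the Q20-cohort females and 10.0, 12.3, 12.6 and 21.95 in the males. Only Q50-cohort F2 reached the Q20-cohort range, and Hif3a fell 2.35-fold (log2 -1.24 ± 0.20, edgeR adjusted p = 0.00152). Cyp1b1, a cytochrome P450 that handles steroids and foreign compounds, did not overlap: its lowest, median and highest CPM were 1.69, 2.28 and 2.47 in the Q50 cohort and 2.94, 3.31 and 4.04 in the Q20 cohort (1.53-fold lower, edgeR adjusted p = 0.00152). Thbd, the endothelial anticoagulant thrombomodulin, did not overlap either, with 5.83, 6.99 and 7.77 CPM against 9.11, 9.86 and 11.7 (1.48-fold lower, edgeR adjusted p = 0.00268). The matrix protein gene Tinagl1 ran from 4.70 to 6.84 CPM against 6.85 to 10.6, and Rin3, an activator of Rab5 GTPases, from 1.28 to 2.496 against 2.52 to 3.79; both groups were apart by a narrow gap. These genes fell 1.501-fold and 1.56-fold (edgeR adjusted p = 0.00882 and 0.00859), and Rin3 did not pass without the libraries with liver transcripts named further on.

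Falls with overlapping cohorts were those of Pglyrp1, a peptidoglycan recognition protein (1.57-fold, edgeR adjusted p = 0.00152), Smim3 (1.46-fold, 0.00271), Xdh, xanthine dehydrogenase (1.53-fold, 0.0318), and Galnt15, a mucin-type glycosyltransferase (1.52-fold, 0.0406). The calls of Xdh and Galnt15 were lost in 8 and 9 of the 16 fits that left out 1 library. Glul, glutamine synthetase of astrocytes, ran from 1381 to 1437 CPM in the Q50 cohort and from 1394 to 1768 in the Q20 cohort, with 2 Q50-cohort libraries below every Q20-cohort library. It fell 1.12-fold (edgeR adjusted p = 0.0448) and was lost in 12 of 16 such fits. Among the lower genes outside the rule for named genes, picked after their values were seen, were the endothelial receptor Adgrl4 (1.33-fold), the formin Daam2, which takes part in Wnt signalling (1.25-fold, no overlap), the Hippo pathway transcription factor Tead1 (1.22-fold, no overlap) and the adiponectin receptor Adipor2 (1.41-fold).

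Genes that were higher in the Q50 cohort changed less. Wnt7a, a secreted Wnt ligand, had 10.4, 12.3, 8.81 and 9.84 CPM in the Q50-cohort females and 11.4, 11.0, 10.6 and 11.4 in the males, against 8.78, 7.56, 7.37 and 6.60 in the Q20-cohort females and 7.79, 7.36, 9.24 and 8.24 in the males. Only Q50-cohort F3 fell below the highest Q20-cohort mouse, and Wnt7a rose 1.36-fold (log2 0.45 ± 0.073, edgeR adjusted p = 0.00152). Clec14a, a lectin-like endothelial membrane protein, did not overlap at 3.95 to 6.22 CPM against 1.85 to 3.81 (1.55-fold higher, edgeR adjusted p = 0.00747). Mex3a, an RNA-binding protein, ran from 2.99 to 4.91 CPM against 1.71 to 2.97 (1.52-fold, edgeR adjusted p = 0.00933), and Lama4, a laminin chain of vessel basement membranes, from 6.36 to 7.78 against 4.23 to 6.21 (1.32-fold, 0.0209). Each was apart from the other cohort, and Lama4 was lost without Q20-cohort F2 or M4 or Q50-cohort F3 (adjusted p = 0.0524 to 0.0706).

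Among genes with an average of at least 1 log2 CPM, the largest rise by fold was that of Pla2g4e, a cytosolic phospholipase A2, with overlapping cohorts (1.62-fold, edgeR adjusted p = 0.0161), which was lost without Q50-cohort F3 (0.055) or M1 (0.056). Fzd5, a Wnt receptor, rose 1.35-fold (edgeR adjusted p = 0.0318) and Tgfb2, a transforming growth factor, 1.28-fold (0.031), with 6 and 7 of 8 Q50-cohort libraries above every Q20-cohort library. Their calls were lost in 9 and 8 of 16 fits that left out 1 library. Adamts16, a metalloproteinase (1.44-fold), Togaram2 (1.38-fold), Phf21b, a PHD finger protein (1.30-fold), BC067074 (1.29-fold) and Plekho2 (1.28-fold) also rose, and these 5 were lost in 12, 4, 12, 12 and 11 such fits. Of the 25 named genes past the threshold, 12 passed in every fit that left out 1 library, and all 25 kept their direction in each alternative. The rule for the largest rises and falls asked for 1 direction in females and males, so keeping it in each sex was set in advance.

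The knock-in mice of the same cohorts gave the nearest repeat, since they share no library with the wild types; they differ in the CAG label as well as in cohort. Between Q50 and Q20 knock-in mice 272 genes passed (1.57%), 123 higher (0.712%) and 149 lower (0.862%) in Q50 mice. Of the 60 wild-type genes, 30 passed in the knock-in mice in the same direction (26 lower and 4 higher) and 0 in the opposite one. They make up 50% of the wild-type calls and 11.0% of the knock-in calls, and 58 of the 60 had the same sign. The 38 lower genes had a median log2 difference of -0.42 in the wild types and -0.34 in the knock-in mice, and the 22 higher genes had 0.39 and 0.19. No gene of the 60 passed in the edgeR test of the difference between the wild-type and the knock-in contrast (4 of all genes did, 0.0231%).

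Zbtb16 was apart in the knock-in mice too, at 5.74, 7.63 and 11.0 CPM in Q50 mice and 18.7, 26.2 and 41.9 in Q20 mice as lowest, median and highest (log2 -1.75 ± 0.24, edgeR adjusted p = 3.49e-05). Plin4 fell there at -1.35 ± 0.32 (adjusted p = 0.0213), Map3k6 at -0.80 ± 0.21 (0.0344), Tsc22d3 at -0.62 ± 0.15 (0.0217) and Hif3a at -0.83 ± 0.20 (0.0239), by the same edgeR test. Of the glucocorticoid-responsive list 4 fell (0.862% of all genes) and 0 rose, 14 of 14 lay below 0 (48.5% of all genes), and the median was -0.22 (0.0045 over all genes). The number that fell was 1 without Q20 F4, 2 without Q20 M4 or Q50 F3, and 1 with the thalamus level as a covariate. Clec14a (log2 0.19, adjusted p = 0.41), Rin3 (-0.28, 0.22) and Plekho2 (0.050, 0.768) were among the wild-type calls that did not pass in the knock-in mice by edgeR.

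The count of 272 in the knock-in mice depended on single libraries. It was 85 without Q20 M4, 125 without Q20 F4, 142 without Q50 F2, 161 without Q50 F3, 163 without Q20 F1 and 169 without Q50 F4. It was 181 without Q50 M4, 445 without Q20 F3 and 658 without Q20 M1. Q50 M4 held liver transcripts at a mean of 7.95 log2 CPM over Alb, Apoa1 and Apoa2, the 3 liver genes that passed the filter; their part in the result was not tested beyond leaving it out. With the thalamus level as a covariate 70 genes passed, and with no filter 284 higher and 154 lower genes did. In the knock-in contrast 11 of 11 thalamus genes lay below 0, at a median of -1.10.

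Galnt11, a mucin-type glycosyltransferase on chromosome 5, was the gene named by the rule where the wild-type and knock-in contrasts differed. Its lowest, median and highest CPM were 30.5, 32.5 and 33.95 in Q50-cohort wild types, 31.4, 32.6 and 33.2 in Q20-cohort wild types, 37.9, 39.3 and 40.4 in Q50 mice and 28.9, 31.3 and 34.1 in Q20 mice. All Q50 mice lay above all mice of the other 3 groups. The wild-type minus knock-in difference was -0.30 ± 0.058 (edgeR adjusted p = 0.0222), and it was lost in 17 of 32 fits that left out 1 library, at values from -0.31 to -0.28. The number of genes in that test was 2, not 4, without Q20-cohort wild type F1, F4 or M1, Q50-cohort wild type F2, F4, M1 or M3, Q20 mouse F1, M1 or M3, or Q50 mouse F3 or F4.

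**Figure D3:**
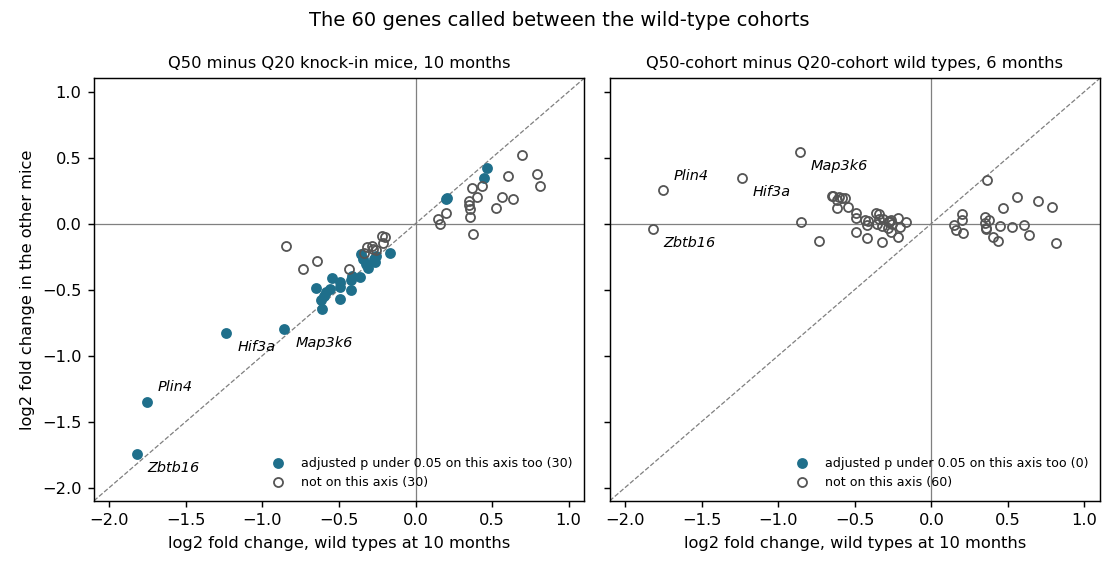
Log2 differences of the 60 genes in the wild types at 10 months (x axis) against the same cohort difference in the knock-in mice at 10 months (left) and in the wild types at 6 months (right); filled points passed on the y axis too, and the dashed line marks equal values. On the left 58 of 60 points share the sign of the x axis and on the right 23 of 60 do.

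The wild types of the same cohorts at 6 months did not give these differences. No gene passed there by edgeR (0 of 17339, 0.00%; smallest adjusted p = 0.0732; 2574 at an unadjusted p under 0.05), while DESeq2 called 176. At 10 months fewer genes, 1665 of 17285, had an unadjusted p under 0.05 by edgeR. The log2 difference was below 0 in 10 of 11 thalamus genes at 10 months, at a median of -0.30. It was below 0 in 11 of 11 at 6 months, at a median of -1.27, with 0 called at either age. Of the 60 genes, 23 had the same sign as at 10 months, and the medians were 0.029 for the 38 lower genes and -0.011 for the 22 higher ones. Of the glucocorticoid-responsive list 2 of 14 lay below 0 (48.5% of all genes), at a median of 0.11 (0.0035 over all genes).

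The difference between ages itself was tested in the 32 wild-type libraries, and 10 of 17044 genes passed (0.0587%), 5 of them among the 60. Zbtb16 had a log2 difference of -1.82 at 10 months and -0.038 ± 0.32 at 6 months, and the change between ages was -1.77 ± 0.34 (edgeR adjusted p = 0.0384). Hif3a went from 0.34 ± 0.27 at 6 months to -1.24 (change -1.57 ± 0.30, adjusted p = 0.0384), Pglyrp1 from 0.21 to -0.65 (-0.85 ± 0.17, 0.0384) and Sult1a1 from 0.30 to -0.51 (-0.79 ± 0.16, 0.0489), by the same edgeR fit. Acat2, a thiolase of cholesterol synthesis, went from -0.068 to 0.21 (0.28 ± 0.055, 0.0384), and Sox21, a transcription factor of progenitors, from -0.17 to 0.32 (0.50 ± 0.097, 0.0384). The 10 calls of this fit were sensitive to single libraries: their number stayed within 1.5 times only without Q20-cohort M1, M2 or M3 or Q50-cohort M3 of 10 months, or Q50-cohort F1, F4, M2 or M4 of 6 months, and otherwise ran from 0 to 5, or 28 without Q50-cohort F3 of 6 months. No gene passed for a difference between females and males by edgeR (0 of 16524, 0.00%; 2047 at an unadjusted p under 0.05), while DESeq2 called 45. That number was 491 without Q20-cohort M2, 50 without Q50-cohort F2, 3 without Q20-cohort F2 and 2 without Q20-cohort M4.

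Over all 12 groups, it was the Q20 cohort at 10 months that stood at the end of the range for most of these genes. For 32 of the 38 genes lower in the Q50 cohort, the wild-type and the knock-in mice of the Q20 cohort at 10 months had the 2 highest group medians of 12 (3.89% of all genes tested). For 10 of the 22 higher genes they had the 2 lowest (4.87% of all genes). The genes were chosen on the contrast of both wild-type cohorts, so the counts with the Q20-cohort wild types carry that choice. Q20 mice of 10 months were not in that contrast, but the other 10 groups include the Q50-cohort wild types, which were. These Q20 mice lay above the other 10 groups in 33 of the 38 (14.4% of all genes) and below them in 11 of the 22 (15.5%). The Q50-cohort wild types lay within the range of the other 9 groups in 27 of the 38 and in 13 of the 22. They had the lowest median of the 12 groups in 11 of the 38 and the highest in 9 of the 22. No share over all genes was computed for these counts, and the genes were chosen on these wild types too.

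Zbtb16 had group medians of 23.8 and 26.2 CPM in the wild-type and knock-in mice of the Q20 cohort at 10 months, and of 7.24 to 11.1 in the other 10 groups. Plin4 had 20.9 and 20.6 CPM against 4.91 to 12.6, Hif3a 15.7 and 13.5 against 7.30 to 9.70, and Cyp1b1 3.31 and 3.55 against 1.77 to 2.75. Thbd followed with 9.86 and 10.5 against 6.99 to 8.86. Single libraries elsewhere reached high values of Zbtb16, up to 42.9 CPM in Q92 mice at 6 months. Wnt7a, in the other direction, had 7.68 and 8.76 CPM against 8.20 to 11.8, and the 8.20 belonged to Q140 mice at 10 months. The library codes of the 2 ages form separate series, so levels across ages are set side by side with no test other than the one on the cohort difference.

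**Figure D4:**
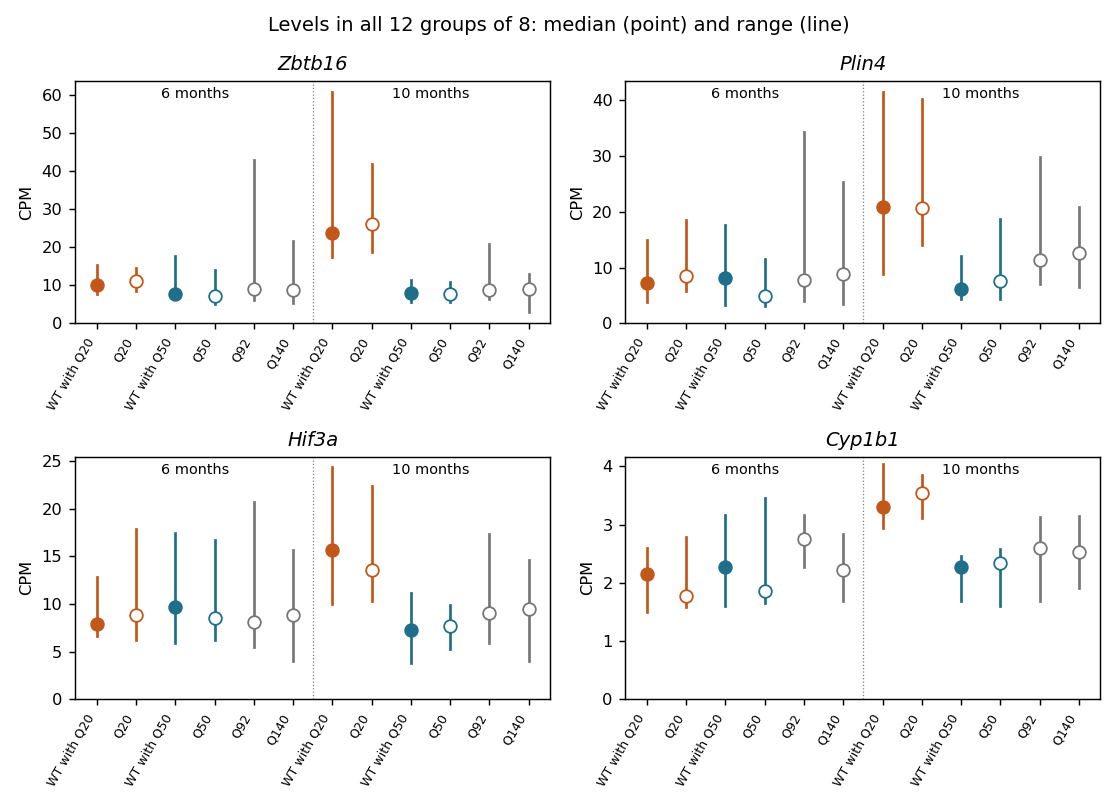
CPM of 4 genes in all 12 groups of 8 libraries (point, median; line, lowest to highest; filled, wild types, named by the mice they were kept with; open, knock-in mice; orange, Q20 cohort; blue, Q50 cohort). At 10 months both Q20-cohort groups have higher medians than the other 10 groups in each panel.

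Marker lists of the striatum and of other cells and tissues gave almost no calls. Over all genes 0.347% were called, so 0 calls in a short list lies near the background. The 22 genes shared by striatal projection neurons gave 0 rises and 0 falls, and their mean level was 9.15 to 9.72 log2 CPM in the Q50 cohort and 9.06 to 9.63 in the Q20 cohort. Direct pathway (0 of 9), indirect pathway (0 of 6) and interneuron genes (0 of 9) did not pass, nor did oligodendrocyte (0 of 12), oligodendrocyte precursor (0 of 7), microglia (0 of 12) and blood vessel genes (0 of 12). The log2 difference was below 0 in 11 of 12 oligodendrocyte genes (median -0.16), 6 of 7 precursor genes (-0.083), 11 of 12 microglia genes (-0.059), 6 of 12 vessel genes (0.0045) and 13 of 13 genes of the mitochondrial genome (-0.095, 0 called), against 49.0% of all genes. It was below 0 in 4 of 22 shared projection neuron genes (median 0.053) and 7 of 8 meningeal genes (-0.091). Of 7 ependyma genes (0.33) and 7 genes that mark C57BL/6 substrains (0.11), 0 lay below 0. Of 13 astrocyte genes Glul fell and 12 did not pass; 12 of 13 lay below 0 (49.0% of all genes) at a median of -0.097, and their level was 7.83 to 8.08 log2 CPM in the Q50 cohort against 7.96 to 8.22. In the knock-in mice 3 of 13 astrocyte and 4 of 12 vessel genes fell (0.862% of all genes). Circadian clock (0 of 15), activity-regulated (0 of 17), heat shock (0 of 14), interferon response (0 of 12), cholesterol synthesis (0 of 17) and ribosomal protein genes (0 of 14) did not pass, nor did 7 genes that mark C57BL/6 substrains or 13 genes beside Htt. Below 0 lay 4 of 15 clock (median log2 difference 0.079), 4 of 17 activity-regulated (0.16) and 10 of 14 heat shock genes (-0.034). So did 2 of 12 interferon response (0.080), 6 of 17 cholesterol synthesis (0.070) and 3 of 14 ribosomal protein genes (0.023). For genes beside Htt it was 2 of 13 (0.063). Of the clock genes 4 rose and 2 fell at an unadjusted p under 0.05 by edgeR (825 and 840 of all 17285 genes). These counts are from edgeR, over all genes tested.

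Library measures were close. Totals ran from 29.3 to 33.8 M counts in the Q50 cohort and from 31.03 to 33.96 in the Q20 cohort, and genes detected from 20944 to 21631 and from 21118 to 21343. The mitochondrial share of counts had medians of 11.3% and 12.4% (difference in means -0.593 percentage points). None of these 3 measures passed an exact permutation test over the 16 libraries (two-sided; p = 0.515, 0.527 and 0.144, adjusted p = 0.527, 0.527 and 0.433). On each of the first 5 principal components of the 1000 most variable genes, the cohorts overlapped. The overlap was partial on component 5 (6.70% of the variance), with -11.5 to 1.58 in the Q50 cohort and -3.81 to 11.4 in the Q20 cohort. The correlation of component 5 with the level of the glucocorticoid-responsive list was 0.75.

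Some libraries carried transcripts of neighbouring or foreign tissue. The level of 11 thalamus genes ran from 2.53 to 6.02 log2 CPM in the Q50 cohort and from 2.49 to 6.26 in the Q20 cohort, with 0 of 11 called and a median of -0.30; with that level as a covariate 96 genes passed and all 60 were among them. The level of 9 cortical projection neuron genes ran from 0.856 to 4.59 and from 1.98 to 3.70, with 0 of 9 called. The liver level was 1.78 log2 CPM in Q50-cohort F3 and 0.468 in Q50-cohort M3, against at most -0.837 in the other 14, with Apoc3, Fgb, Serpina1a and Ahsg below the filter. Without these 2 libraries 35 genes passed, 34 of them among the 60, 15 of the 25 named genes among them, and 2 glucocorticoid-responsive genes fell. Pituitary (0 of 3), choroid plexus (0 of 10), hypothalamus (0 of 5), habenula (0 of 5), midbrain dopamine neuron (0 of 5), ependyma (0 of 7), meningeal (0 of 8) and red blood cell genes (0 of 5) were not called.

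**Figure D5:**
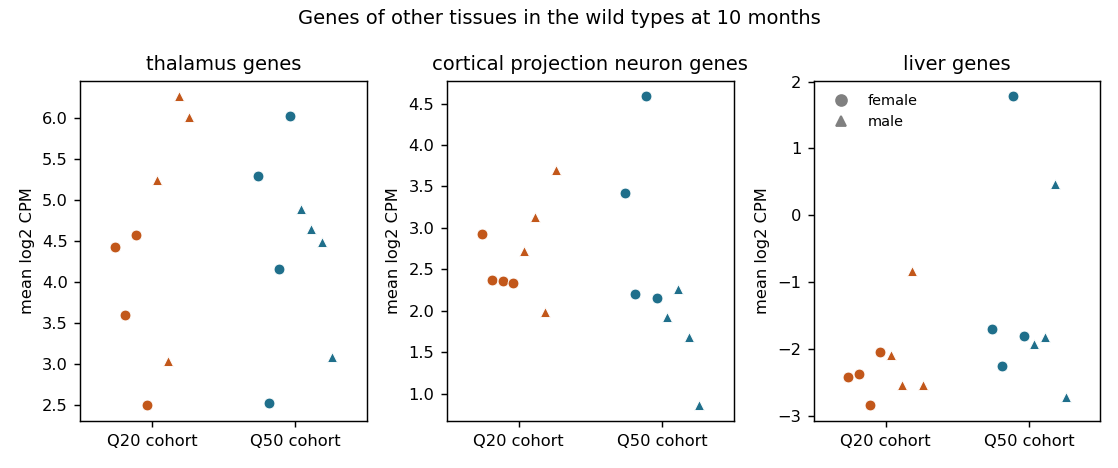
Mean log2 CPM of 11 thalamus genes, 9 cortical projection neuron genes and 3 liver genes in each of the 16 wild-type libraries of 10 months (circles, females; triangles, males). The thalamus and cortex levels overlap between the cohorts, and 2 Q50-cohort libraries lie above 0 on the liver axis.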

How the data were processed

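Striatal RNA was purified on columns, and libraries of an enriched fraction were made by standard Illumina methods, per the labels' protocols. CASAVA 1.8.2 is named in the submitters' processing notes; the sources used here do not give the aligner, quantifier, build or strand. Deposited by the authors were expected counts per Ensembl gene, without normalization (27.7% of non-zero values fractional at a tolerance of 0.001), and FPKM values, which the authors scaled for gene length and library total. Each table held 39179 identifiers by 96 libraries, with 0 columns of no sample; 37693 identifiers had a symbol. Without strand, overlapping genes and near-identical copies cannot be told apart.

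Expected counts were rounded and tested with edgeR 4.0.16 in R 4.3.3 (robust quasi-likelihood F test, TMM, filterByExpr, two-sided, adjusted p under 0.05). The 48 libraries of 10 months entered 1 fit of 6 groups plus sex; the sex test used 16 libraries and the age test 32. The labels do not say that replicates came from separate mice beyond their numbers, so p-values measure the spread between libraries. The method was checked on simulated counts drawn independently for each library. They held no effect shared within a cohort, such as litter or housing, so the check does not cover such effects. Replicate numbers did not pair the cohorts. Levels of lists are means of log2 CPM (prior count 2). Alternatives were RLE scaling, other filters, DESeq2 1.42.0, limma 3.58.1 on log2 FPKM, covariates, each sex and leaving out libraries.

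The rule named Htt, the 12 largest rises and falls past the threshold that had a mean log2 CPM of 1 or more and moved one way in females and males, 2 members of each list, and 4 genes each way for the differences by sex, by age and against knock-in mice. The cohorts and the 33 lists were chosen with earlier results of these data known.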

Additional observations from a re-analysis of the deposited data

Results flagged for a closer look

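Differences between ages met a formal test in wild types. The cohort difference changed from 6 to 10 months by -1.77 (log2) for Zbtb16, -1.57 for Hif3a, -0.85 for Pglyrp1, -0.79 for Sult1a1, 0.50 for Sox21 and 0.28 for Acat2 (edgeR adjusted p = 0.0384, and 0.0489 for Sult1a1). Each of these calls was lost in most of the 32 fits that left out 1 library. The losses were 22 for Zbtb16 and Hif3a, 24 for Pglyrp1, 25 for Sult1a1, 26 for Sox21 and 29 for Acat2. Each call was also lost with no filter and with the replicate block. The difference of Galnt11 between wild-type and knock-in mice was -0.30 on the same scale (adjusted p = 0.0222).

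A library far from the other 7 of its cohort was found in 5 of 76 sets of 8 values examined; chance marks about 1 in 20. Zbtb16 stood at 60.8 CPM and Map3k6 at 8.11 CPM in Q20-cohort M4, and Tgfb2 at 5.49 CPM in Q20-cohort M2. The liver level of Q20-cohort M3 was -0.837 log2 CPM, above its cohort and below both Q50-cohort libraries with liver transcripts. The mitochondrial share of Q50-cohort F2 was 13.05%. Zbtb16 passed without Q20-cohort M4, and Map3k6 did not (adjusted p = 0.208).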

How the results depend on the processing

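No result changed sign among those past the threshold. The 60 calls between the cohorts became 107 with DESeq2 (58 shared), 96 with the thalamus level as a covariate and 120 with thalamus and cortex levels, 13 in females, 0 in males, 30 with the L number as a factor (29 shared), 34 with limma on FPKM without a filter and 35 without the 2 libraries with liver transcripts, the last chosen after seeing the data; they stayed between 45 and 70 under the other settings (70 with only the 16 wild types, 36 shared), and were 27 to 65 with 1 library left out. Glucocorticoid-responsive falls (3 in wild types) were 5 with DESeq2, 0 in males (8 at an unadjusted p under 0.05), 1 with the L number and 2 to 4 with 1 library left out; in knock-in mice (4) they were 1 with the thalamus covariate and 1 to 4 with 1 library left out. The knock-in contrast (272) gave 438 without a filter, 70 with the thalamus covariate, 181 without the library with liver transcripts and 85 to 658 with 1 library left out. The wild-type against knock-in test (4) gave 6 with DESeq2, 3 or 4 under the other settings and 2 to 5 with 1 library left out. The sex test (0) gave 45 with DESeq2, 3 with the thalamus covariate and 0 to 491 with 1 library left out. The age test (10) gave 2 without a filter, 35 with DESeq2, 23 with the thalamus covariate and 0 to 28 with 1 library left out. The 6-month contrast (0) gave 176 with DESeq2. The cause of each change was not tested. No library measure passed under any alternative; with 1 library left out the differences were -0.735 to -0.0852 M counts, 12.6 to 110.8 genes and -0.819 to -0.455 percentage points, but the total was 0.243 M counts higher in females of the Q50 cohort (-1.16 in males) and genes detected differed by 181.5 in females and -56.2 in males. Same-numbered libraries of the cohorts had correlations of deviations from -0.249 to 0.252, so the numbers share no more than a number. With the replicate block the counts were 46 (cohorts), 158 (knock-in), 4 (wild-type against knock-in), 0 (sex), 0 (age; 1298 at an unadjusted p under 0.05) and 6 (6 months), and 2 and 3 list members fell. Depth was at least 29.28 M counts in the 16 libraries, and genes under the filter were not tested.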
